A study of Mus musculus with 6 samples.

Results

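The messenger RNA of 10 chemokine ligands was followed in splenic monocytes: Ccl2, Ccl3, Ccl4, Ccl6, Ccl9, Ccl24, Cxcl2, Cxcl9, Cxcl10 and Cxcl16. They were taken by gene symbol, and all 10 were found, each on 1 of the 46072 gene identifiers of the count table. All 10 also passed the expression filter, which kept 16138 genes for testing. The mice were female C57BL/6 animals of 8 to 10 weeks, with no other allele named. The Con group was gavaged with water and the Van group with 2 mg of vancomycin per mouse and day, for 6 days. Both were then kept without antibiotic, which the labels and the methods section put at 6 to 8 days. The study's results section gives 8 days for the RNA libraries. Monocytes were taken from the spleen by magnetic negative selection and were not stimulated before RNA was purified. As the methods describe it for this cell type, the selection removes cells with CD3e (T cells), CD45R (B cells), NK1.1, Ly-6G (neutrophils) or Siglec F (eosinophils). Each group had 3 libraries, which the methods attribute to 3 mice.

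Chemokines are small secreted proteins that bind receptors coupled to G proteins and draw receptor-bearing cells along a gradient. Monocytes are both a source and a target of them: Ccl2 draws monocytes that carry its receptor Ccr2 out of the bone marrow and into tissue, while Cxcl9 and Cxcl10, which are induced by interferon gamma, draw T cells and NK cells that carry Cxcr3. Many chemokine genes sit side by side on the chromosome, where related copies arose by duplication.

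The libraries held between 43.4M and 61.8M estimated counts, and the 10 ligands together took 0.112% to 0.133% of them. Of the 11 monocyte markers examined, 0 were called by edgeR's quasi-likelihood test, 3 had an unadjusted p under 0.05 and 4 did not overlap between the groups. Of all genes tested, 2.00% were called, 16.5% had such a p and 22.5% did not overlap. The summed level of the 11 markers, much of it Lyz2, was 25807 to 26244 CPM (counts scaled to the library's total) in Con and 25418 to 25906 CPM in Van. Erythroid markers summed to 81.2 to 169 CPM in Con and 282 to 622 CPM in Van. Of these 8 markers, 5 rose by that test at a Benjamini-Hochberg adjusted p of at most 0.05. All 10 red pulp macrophage markers had a higher mean in Van, with sums of 3589 to 4224 and 4228 to 5385 CPM, and 0 of them were called, with 6 at an unadjusted p under 0.05. B cell markers summed to 623 to 716 CPM in Con and 459 to 505 CPM in Van, and 1 of 7 fell by the same test. Markers of stroma and endothelium summed to 58.0 to 73.1 CPM in Con and 104 to 182 CPM in Van. Of these 5 markers, 2 were higher and 3 lower in mean, and 1 rose by the same test. Neutrophil markers summed to 4.30 to 10.2 CPM in Con and 1.90 to 8.69 CPM in Van, with all 6 tested of 8 lower in mean, 0 called, and Retnlg (log2 fold change -2.59, adjusted p of 0.0904 in edgeR) without overlap. Ly6g, of the same list, was at 0 in all 6 libraries. The part of these cells in the values below was not tested, and in bulk RNA fewer cells of a type and less RNA per cell cannot be told apart.

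The 10 genes lie on chromosomes 5 and 11 in the GRCm38 build (GENCODE M21). Ccl2 (chr11:82035571-82037453, plus strand) stood apart from a denser group that held Ccl9 (chr11:83572919-83578636, minus strand), Ccl6 (chr11:83587882-83593087, minus strand), Ccl3 (chr11:83647844-83649355, minus strand) and Ccl4 (chr11:83662584-83664683, plus strand). Cxcl16 was found further off (chr11:70453983-70459984, minus strand). On chromosome 5 were Cxcl2 (chr5:90903871-90905938, plus strand), the adjacent Cxcl9 (chr5:92321347-92328079, minus strand) and Cxcl10 (chr5:92346638-92348889, minus strand), and Ccl24 (chr5:135569937-135573049, minus strand). Exons of Cxcl10 overlap Art3 and exons of Cxcl16 overlap Zmynd15, both on the opposite strand. Use of the strand in counting is not stated, so that reads of these pairs may have been mixed. The other 8 ligands shared no exon with another gene.

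RefSeq promoter sequence on GRCm38.p6 was at hand for 6 of the 10 ligands, namely Ccl3, Ccl6, Ccl9, Cxcl2, Cxcl9 and Cxcl10. The 250 bases before the RefSeq start are shown for the neighbours Cxcl9 and Cxcl10, whose levels moved together over the libraries, and for Cxcl2, which also varied widely but in another order of libraries. Capitals mark matches, on either strand, to GAAANNGAAA (a form of the interferon-stimulated response element) or to the NF-kB consensus, and Cxcl9 has no match to either. Other elements, and looser forms of these, were not marked, so that a stretch without capitals may still hold some. The RefSeq start of Cxcl2 lies inside the GENCODE gene given above.
Cxcl9 (chr5:92328080-92328329, minus strand): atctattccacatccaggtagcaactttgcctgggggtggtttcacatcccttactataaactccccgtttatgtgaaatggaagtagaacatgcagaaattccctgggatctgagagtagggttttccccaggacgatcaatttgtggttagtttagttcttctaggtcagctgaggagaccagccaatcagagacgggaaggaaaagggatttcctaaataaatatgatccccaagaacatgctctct
Cxcl10 (chr5:92348890-92349139, minus strand): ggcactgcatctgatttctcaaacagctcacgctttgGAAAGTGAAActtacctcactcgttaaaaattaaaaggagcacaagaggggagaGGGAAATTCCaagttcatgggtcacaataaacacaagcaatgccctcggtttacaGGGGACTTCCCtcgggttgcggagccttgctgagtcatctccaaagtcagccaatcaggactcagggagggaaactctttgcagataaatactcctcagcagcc
Cxcl2 (chr5:90903649-90903898, plus strand): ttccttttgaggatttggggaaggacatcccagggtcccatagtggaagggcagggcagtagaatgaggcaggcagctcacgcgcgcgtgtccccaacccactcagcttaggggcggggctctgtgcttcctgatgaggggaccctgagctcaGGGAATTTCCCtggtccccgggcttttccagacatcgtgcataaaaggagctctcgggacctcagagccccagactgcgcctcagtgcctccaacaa

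GAAANNGAAA was found in 1 of the 6 promoters, that of Cxcl10, against 2.98% of 32841 mouse promoters of the same length. The NF-kB consensus was found in 3 of the 6, those of Cxcl10, Cxcl2 and Ccl9, against 7.25% of all promoters. Some matches overlap: Cxcl10 has 3, of which 2 share bases, and both matches of Cxcl2 share bases. TTCNNNGAA and TATAAA, sought in the same way, were found in 0 and 2 of the 6, against 7.02% and 12.4% of all promoters.

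The ligands covered a wide range of levels. Given as FPKM, which scales to transcript length and so allows genes to be compared, Ccl6 was highest at 317 ± 16.0 (SD, n = 6 libraries), followed by Ccl9 at 95.1 ± 10.9, Cxcl2 at 74.6 ± 23.5 and Ccl3 at 62.5 ± 8.64. Ccl2 stood at 21.1 ± 4.84 FPKM, Cxcl10 at 18.2 ± 7.57, Cxcl16 at 15.1 ± 3.08 and Ccl4 at 11.6 ± 2.55. Cxcl9 at 8.01 ± 3.63 FPKM and Ccl24 at 3.58 ± 0.755 were the lowest of the 10. The ranges over the 6 libraries separated only between Ccl6 and Ccl9, a ratio of means of 3.33, and between Ccl3 and Ccl2, a ratio of 2.97. All other neighbours in this order overlapped, though Cxcl9 was above Ccl24 in 6 of 6 libraries. Ccl6 alone made up 48.0% to 52.5% of the summed FPKM of the ligands in each library.

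**Figure D1:**
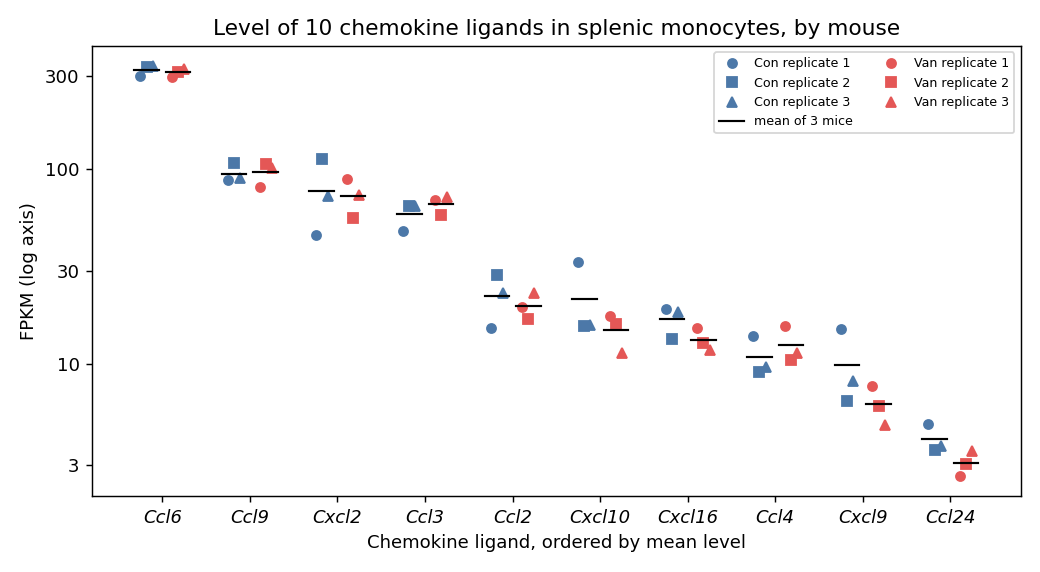
FPKM of each ligand (log axis) in the 3 Con and 3 Van libraries, ordered by mean level, with 1 point per library and a line at each group mean. Ccl6 lies above all other ligands in every library, and the Con and Van points overlap for every ligand but Ccl24, whose lowest Con value of 3.59 is just above its highest Van value of 3.57.

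Several neighbours of the ligands were at far lower levels. In the group on chromosome 11, Ccl6 and Ccl9 are 9245 bases apart and were the highest of the 10. Ccl5, not one of the 10, lies 42.4 kb from Ccl9 and had a mean of 96.1 FPKM, close to the 95.1 of Ccl9. Ccl7, 8.26 kb from Ccl2 and like it a ligand of Ccr2, was at 0 to 0.257 FPKM in the 6 libraries. Cxcl1, 10.8 kb from Cxcl2 and like it a neutrophil attractant, was at 0.400 to 0.821 FPKM, and Cxcl3 at 0.132 to 0.431. Beyond Cxcl10, at 10.7 kb, Cxcl11 had at most 0.068 FPKM and is annotated as a polymorphic pseudogene. Ccl26, 6.37 kb from Ccl24, was at 0 in all libraries.

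Van was then compared to Con, the question being whether vancomycin followed by rest altered the ligands that resting monocytes express. Of the 10 ligands, 0 were called by edgeR at an adjusted p of at most 0.05, a rule that called 2.00% of all genes tested. At an unadjusted p under 0.05 there were 2, Cxcl9 and Cxcl16, both with the lower mean in Van. Over all genes 16.5% passed that rule in either direction and 8.14% with the lower value in Van. DESeq2's Wald test also called 0 of the 10, where it called 7.36% of the genes it gave an adjusted p. It had 1 ligand at an unadjusted p under 0.05, against 11.5% of all genes. With limma on log2(FPKM + 1), 0 of the 10 were called and 0 had an unadjusted p under 0.05, against 0.118% and 15.2% of all genes. The mean was higher in Van for 3 ligands (Ccl3, Ccl4 and Ccl9) and lower for 7, against 49.6% and 50.4% of all genes, and the median log2 fold change was -0.15 over the 10 and -0.0014 over all genes. In CPM the groups overlapped for all 10 ligands, whereas they did not for 22.5% of all genes.

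**Figure D2:**
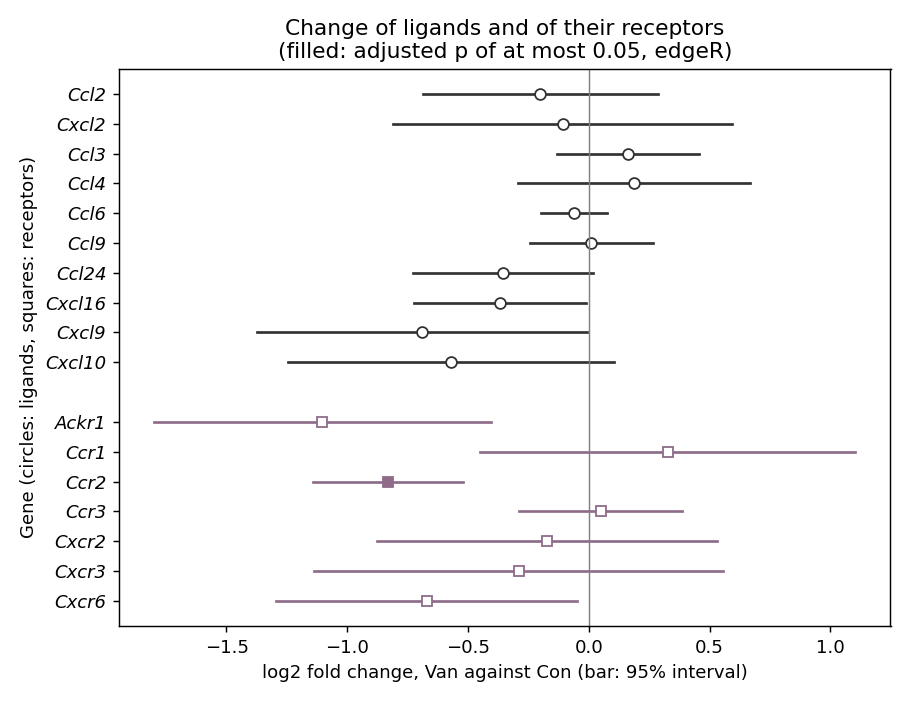
Log2 fold change of each ligand (circles) and of the receptors described (squares), Van against Con, with 95% intervals from edgeR, where a filled symbol marks an adjusted p of at most 0.05. Ccr2 at -0.83 is the only filled symbol, and the intervals of Cxcl9, Cxcl10 and Cxcl2 are the widest among the ligands.

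On the log2 scale, Cxcl9 and Cxcl10 had the largest differences of the 10 ligands between Van and Con. Cxcl9 was at 52.3, 22.2 and 27.6 CPM in Con replicates 1 to 3 and at 26.2, 20.2 and 16.7 CPM in Van replicates 1 to 3. The first Con mouse was far above the other five, which overlapped. The log2 fold change was -0.69 ± 0.30 (SE, n = 3 mice a group), with a 95% interval of -1.37 to -0.0082 and an adjusted p of 0.298 in edgeR's quasi-likelihood test. A two-sided exact permutation test of its CPM values gave p = 0.2, where 3 mice against 3 cannot go below 0.1. Without Con replicate 1 the log2 fold change was -0.24, with an adjusted p of 0.625 in edgeR.

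Cxcl10 was likewise highest in Con replicate 1. It stood at 45.6, 21.4 and 21.1 CPM in Con and at 23.4, 20.7 and 15.2 CPM in Van. Again a single Con mouse stood high, and the other 2 lay within the range of Van. The log2 fold change was -0.57 ± 0.30 (SE, n = 3), with an interval of -1.25 to 0.10 and an adjusted p of 0.386 in edgeR. It was -0.11 when Con replicate 1 was left out. The FPKM ratio of Cxcl9 to Cxcl10 stayed between 0.379 and 0.515 in the 6 libraries.

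Cxcl16, made as a membrane-bound protein that is cleaved to release a ligand of Cxcr6, was at 56.6, 38.8 and 52.5 CPM in Con and at 45.5, 33.9 and 35.2 CPM in Van. The second Con mouse was below the first Van mouse, so that the groups overlapped. This gave a log2 fold change of -0.37 ± 0.16 (SE, n = 3), with an interval of -0.72 to -0.011 and an adjusted p of 0.289 in edgeR. Of the proteases listed for these ligands, Adam10, which sheds Cxcl16, had a log2 fold change of -0.07 and Adam17 of 0.01. Among all 5 proteases 0 were called by edgeR and 0 reached an unadjusted p under 0.05, and their median was -0.07. Over all genes tested these shares were 2.00% and 16.5%.

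Ccl24, an eosinophil attractant that binds Ccr3, was the ligand at the lowest level. Its values were 7.02, 5.60 and 5.29 CPM in Con and 4.12, 4.61 and 5.30 CPM in Van. The highest Van mouse and the lowest Con mouse were almost level in CPM. The groups separated, by as small a margin, in FPKM and when size factors of DESeq2 were used in place of TMM. Against Con, Van had a log2 fold change of -0.35 ± 0.16 (SE, n = 3), with an interval of -0.73 to 0.02 and an adjusted p of 0.331 in edgeR. Markers of eosinophils summed to 5.11 to 6.97 CPM in Con and 4.04 to 5.31 CPM in Van, with 3 of 3 tested lower in mean, although the selection removes cells with Siglec F. Their part in the Ccl24 values was not tested.

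Ccl2 and Cxcl2, attractants of monocytes and of neutrophils, varied more between mice of a group than between groups. Ccl2 was at 15.9, 30.7 and 24.2 CPM in Con and at 20.3, 17.7 and 23.7 CPM in Van. Cxcl2 was at 74.8, 194 and 121 CPM in Con and at 149, 90.7 and 122 CPM in Van. For both, the lowest and the highest of the 6 values were Con replicates 1 and 2, and all Van mice lay between them. The log2 fold change of Ccl2 was -0.20 ± 0.21 (SE, n = 3), with an interval of -0.69 to 0.29 and an adjusted p of 0.717 in edgeR. That of Cxcl2 was -0.11 ± 0.31, with an interval of -0.81 to 0.59 and an adjusted p of 0.912 in edgeR. Without Con replicate 2 the sign of both turned, to 0.035 and 0.30.

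Ccl3 and Ccl4 are adjacent genes whose products attract monocytes and T cells. Ccl3 was at 44.2, 59.7 and 57.8 CPM in Con and at 63.1, 51.7 and 65.8 CPM in Van, with a log2 fold change of 0.16 ± 0.13 (SE, n = 3) and an adjusted p of 0.607 in edgeR. Ccl4 was at 11.0, 7.19 and 7.42 CPM in Con and at 12.3, 8.00 and 8.92 CPM in Van, with a log2 fold change of 0.19 ± 0.21 and an adjusted p of 0.732 in edgeR. Groups overlapped for both, and the 95% intervals were -0.13 to 0.46 and -0.29 to 0.67. Although the genes are 13.2 kb apart, the FPKM ratio of Ccl3 to Ccl4 ranged from 3.45 in Con replicate 1 to 7.15 in Con replicate 2.

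Ccl6 and Ccl9, ligands of Ccr1 that mouse myeloid cells make without stimulation, were the steadiest. Ccl6 was at 515, 567 and 559 CPM in Con and at 502, 522 and 548 CPM in Van, and its log2 fold change was -0.06 ± 0.06 (SE, n = 3) with an interval of -0.20 to 0.08. Ccl9 averaged 338 ± 40.0 CPM over the Con mice and 340.4 ± 44.3 CPM over the Van mice (SD, n = 3), and its log2 fold change was 0.01 ± 0.11 with an interval of -0.24 to 0.26. Adjusted p-values were 0.687 and 0.975 in edgeR.

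The spread over mice differed widely among the ligands. The highest of the 6 CPM values was 3.13 times the lowest for Cxcl9, 2.99 times for Cxcl10 and 2.59 times for Cxcl2, but 1.33 times for Ccl9 and 1.13 times for Ccl6. Among tested genes with a mean of at least 10 CPM, 0.542% had a ratio as large as that of Cxcl9, 0.589% as that of Cxcl10, 0.895% as that of Cxcl2 and 84.2% as that of Ccl6. Con replicate 1 held the highest value of 4 ligands (Cxcl9, Cxcl10, Cxcl16 and Ccl24) and the lowest of 3 (Ccl2, Ccl3 and Cxcl2). Con replicate 2 held the highest value of 4 others (Ccl2, Cxcl2, Ccl6 and Ccl9). High values of the ligands were thus not shared by all of them in any mouse.

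**Figure D3:**
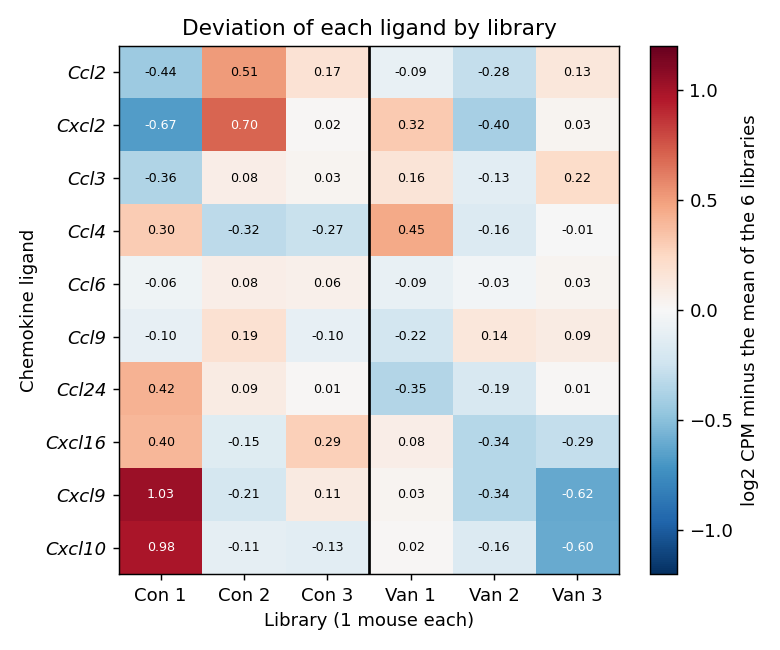
Deviation of each ligand in each library, as log2 CPM minus its mean over the 6 libraries, with the value printed in each cell. In Con replicate 1, Cxcl9 and Cxcl10 are at 1.03 and 0.98 while Ccl2 and Cxcl2 are at -0.44 and -0.67.

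Across the 6 libraries, log2 CPM of Cxcl9 correlated with that of Cxcl10 (Pearson's r = 0.97) and of Cxcl16 (r = 0.88). Ccl2 correlated with Cxcl2 (r = 0.89), while Ccl3 and Cxcl10 correlated negatively (r = -0.85). These are descriptions over 6 points that share 2 groups and their library sizes, and Con replicate 1 is at an extreme of 7 of the 10 ligands. By the same measure, among 8486 genes with a mean of at least 10 CPM, the gene most like Cxcl9 was Ciita, the transactivator of MHC class II genes (r = 0.996), a likeness by which it was chosen. The gene most like each of the other 7 ligands above that level was Pts for Ccl2, Kif13a for Ccl3, Tars for Ccl6, Bola2 for Ccl9, Rad50 for Cxcl2, Nop10 for Cxcl10 and Chrac1 for Cxcl16, with r between 0.977 and 0.998.

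Genes of the interferon gamma route did not all follow Cxcl9 and Cxcl10 over the mice. Ifng itself was at 0 in all 6 libraries, which follow a selection that removes cells with CD3e or NK1.1. Con replicate 1 held the highest value of 4 of the 7 genes tested, among them Irf1, Socs1 and Jak2, while Jak1 and Ifngr1 were highest in Van replicate 1 and Ifngr2 in Van replicate 3. Irf1, a transcription factor induced by interferon, was at 529, 286 and 308 CPM in Con and at 340.5, 275 and 273 CPM in Van. The receptor chain Ifngr1 was at 740.3, 754 and 777 CPM in Con and at 838, 792 and 792 CPM in Van. In Con replicate 1, relative to the mean of the 6 libraries, Irf1 stood at 1.58, Socs1 at 1.31, Jak2 at 1.16 and Ifngr1 at 0.946, against 1.90 for Cxcl9. The kinase Jak2 had a log2 fold change of -0.20 ± 0.08 (SE, n = 3), with an adjusted p of 0.291 in edgeR. Of the 7 genes tested, 0 were called by edgeR and 2, Jak2 among them, had an unadjusted p under 0.05. Over all genes tested these shares were 2.00% and 16.5%. The median log2 fold change of the 7 was 0.02. The part of interferon gamma in the Cxcl9 and Cxcl10 values was not tested.

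**Figure D4:**
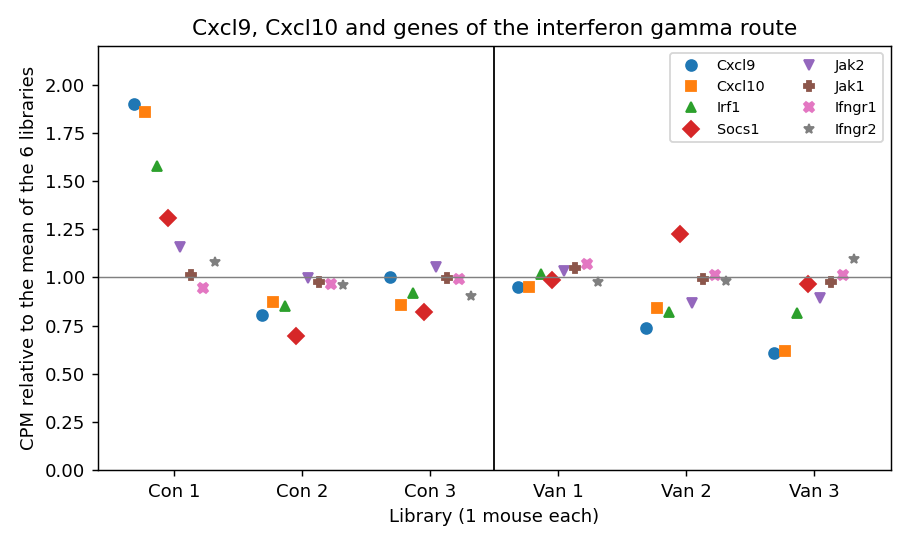
CPM of Cxcl9, Cxcl10 and 6 genes of the interferon gamma route in each library, relative to the mean of the 6 libraries (linear axis from 0). In Con replicate 1 the values run from 1.90 for Cxcl9 and 1.58 for Irf1 down to 1.01 for Jak1 and 0.946 for Ifngr1.

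Genes that act on NF-kB or on the decay of chemokine messenger RNA were also compared. Of 13 tested, 0 were called by edgeR, and the median log2 fold change was 0.02. A single gene, 1 of the 13, passed an unadjusted p under 0.05, against 16.5% of all genes tested. That gene was Nfkbiz, an NF-kB cofactor, at 395, 341 and 378 CPM in the Con mice and 533, 446 and 385 CPM in the Van mice, with an adjusted p of 0.245 in edgeR. The NF-kB subunit Rel had a log2 fold change of -0.42 with an adjusted p of 0.334 in edgeR. Without Van replicate 1 it was -0.71 with an adjusted p of 0.0435 in edgeR, which would be a call.

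The receptors of the ligands were compared in the same libraries. Of 9 listed, 8 were tested (all but Ackr2), and 1, Ccr2, was lower in Van by edgeR. Ccr2, the receptor of Ccl2, was at 757, 757 and 680 CPM in Con and at 316, 444 and 473 CPM in Van. Every Van mouse was below every Con mouse. The log2 fold change was -0.83 ± 0.14 (SE, n = 3), with an interval of -1.14 to -0.52 and an adjusted p of 0.0283 in edgeR. The call was lost in edgeR without Con replicate 1 (log2 fold change -0.81, adjusted p of 0.0722), Con replicate 2 (-0.81, 0.0904), Con replicate 3 (-0.88, 0.0991) or Van replicate 2 (-0.89, 0.0983). Over all genes these 4 fits called 136, 50, 22 and 21, in place of 322. The adjusted p was 0.0549 in edgeR with replicate numbers as a block and 0.0783 to 0.119 with limma on FPKM, and DESeq2 gave 1.5e-08. Among the monocyte markers, Ly6c2, high on classical monocytes as Ccr2 is, was at 389, 404 and 359 CPM in Con and at 262, 272 and 377 CPM in Van (log2 fold change -0.34, adjusted p of 0.240 in edgeR). Itgam had a log2 fold change of -0.21 with an adjusted p of 0.0741 in edgeR. Markers of nonclassical monocytes did not share a direction: the log2 fold change was 0.19 for Treml4, 0.19 for Ace and 0.11 for Nr4a1, but -0.17 for Cx3cr1, -0.14 for Spn and -0.10 for Adgre4, and 0 of these were called by edgeR. The part of monocyte subsets in the Ccr2 values was not tested.

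Of the other receptors, Ccr1, bound by Ccl3, Ccl6 and Ccl9, was at 8.68, 12.2 and 10.4 CPM in Con and spread from 6.57 to 20.3 CPM in Van, which gave a log2 difference of 0.33 ± 0.34. Ccr3 ranged from 59.4 to 86.0 CPM over the Con mice and from 68.9 to 90.4 CPM over the Van mice, which gave a log2 difference of 0.05 ± 0.15. Cxcr6, bound by Cxcl16, was at 1.70, 2.25 and 2.40 CPM in Con and at 1.68, 0.961 and 1.33 CPM in Van, with an adjusted p of 0.271 in edgeR. Cxcr2 and Cxcr3 were at 1.45 CPM or less in every library, and their log2 fold changes were -0.17 and -0.29. Ackr1, which shares exon sequence with Cadm3, had a log2 fold change of -1.10 with an adjusted p of 0.115 in edgeR. Over the 8 receptors the median log2 fold change was -0.31, with 6 lower in mean, 4 at an unadjusted p under 0.05 and 3 without overlap between groups. Of all genes tested, 50.4% were lower in mean, 16.5% had such a p and 22.5% did not overlap.

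Among the other chemokine ligands, 28 were listed, 15 were tested and 8 were at 0 in all libraries. Ccl5, a chemokine made by T cells and monocytes, was the most abundant of those named, at 110 ± 12.4 FPKM in Con and 81.8 ± 20.7 FPKM in Van (SD, n = 3), which is between Ccl6 and Ccl3 of the 10. In edgeR it had a log2 fold change of -0.44 ± 0.17 with an adjusted p of 0.242. Ccl22 had a log2 fold change of -0.41 with an adjusted p of 0.232, and Pf4, a product of platelets, -0.64 with an adjusted p of 0.246, both in edgeR. Platelet markers had lower means in Van for 6 of 6, with sums of 25.6 to 43.3 CPM in Con and 22.5 to 29.9 CPM in Van, and their part in the Pf4 values was not tested. T cell markers had lower means in Van for 7 of 8, with sums of 43.9 to 58.6 and 33.7 to 45.6 CPM, although the selection removes cells with CD3e. Their part in the Ccl5 values was not tested.

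Ccl12, which shares the receptor Ccr2 with Ccl2, was the only one of these 15 called by edgeR, and it rested on few reads. It was at 0.328, 0.250 and 0.416 CPM in Con and was listed at 0 in all 3 Van libraries. The Con values come to an estimated 19.0 fragments in all, if a count is 75 bases of coverage and a fragment 2 reads of 100 bases. Set against a floor of 3 fragments over the Van group, and scaled to depth, the Con estimate was 6.87 times as high. This ratio allows for no error in the Con estimate. The adjusted p of Ccl12 was 0.0337 in edgeR. It passed the filter on low counts only through the Con libraries, where it is high, so a gene kept in this way had to differ and the call supports nothing further. The call was lost when any of the 6 libraries was left out, with adjusted p-values of 0.103, 0.104 and 0.157 in edgeR without Con replicates 1, 2 and 3, and of 0.0803, 0.128 and 0.0967 without Van replicates 1, 2 and 3. Over all 15 the median log2 fold change was -0.26, with 10 lower in mean and 4 at an unadjusted p under 0.05. Of all genes tested, 50.4% were lower in mean and 16.5% had such a p.

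Conventional dendritic cells are another source of Cxcl9 and Cxcl10. Their markers had lower means in Van for 8 of 9, with sums of 508 to 569 CPM in Con and 462 to 538 CPM in Van, and 1 fell by edgeR. This was Clec9a, at 11.5, 8.79 and 10.1 CPM in Con and at 4.98, 4.18 and 4.81 CPM in Van (log2 fold change -1.12, adjusted p of 0.0131). Its partner Xcr1 had a log2 fold change of -0.85 with an adjusted p of 0.0667 in edgeR. No marker of this list was at 0 throughout. Their part in the values of Cxcl9, Cxcl10 and Ccl22 was not tested.

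**Figure D5:**
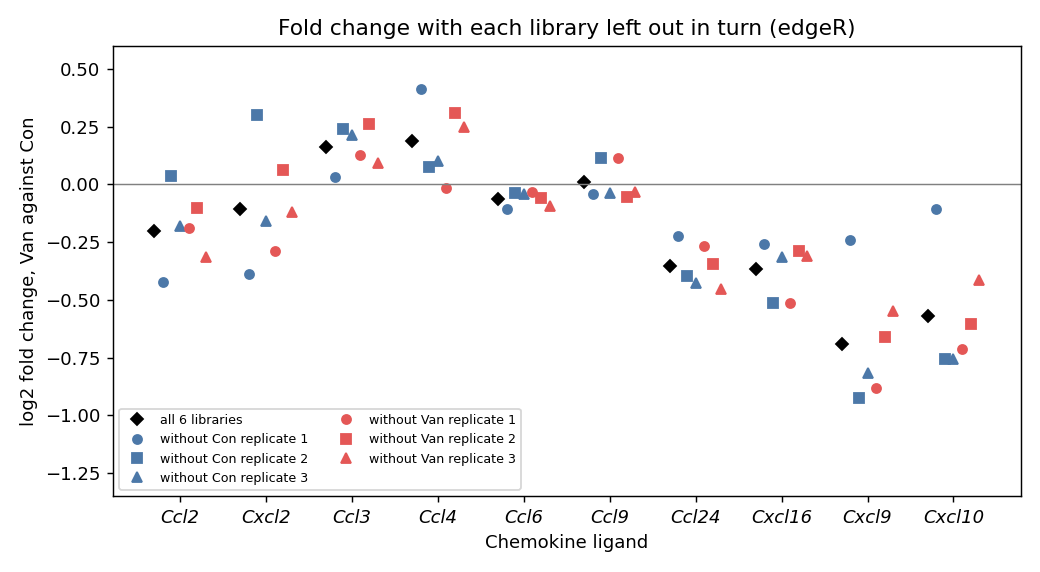
Log2 fold change of each ligand, Van against Con, with all 6 libraries (diamonds) and with each library left out in turn, from edgeR. Cxcl9 ranges from -0.92 to -0.24 and Cxcl10 from -0.76 to -0.11, both nearest to 0 without Con replicate 1, while Ccl6 ranges from -0.11 to -0.03.

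With each library left out in turn, Cxcl9, Cxcl10, Cxcl16, Ccl24 and Ccl6 kept a log2 fold change below 0 in all 6 fits and Ccl3 above 0 in all 6. The sign of Ccl2, Ccl4, Ccl9 and Cxcl2 depended on which mouse was left out. In none of these 6 fits, and in none of the 11 alternatives with all 6 libraries, was any of the 10 ligands called. The 6 fits without a library called 21 to 136 genes of all tested and limma 11 to 20, so that a count of 0 among 10 says little in them. The same holds for the main edgeR fit, which called 2.00% of all genes tested, and for DESeq2 at 7.36%.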

How the data were processed

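TruSeq stranded mRNA libraries of splenic monocytes, 3 of the Con and 3 of the Van group, were analysed, grouped by GEO's titles. The VanLip libraries of the study were not analysed here. The authors aligned reads to GRCm38 with HISAT2 2.2.1 and SAMtools 1.9 and assembled them with StringTie 2.1.3. The deposited estimated counts were used unscaled. Many of their values, though not all, become whole numbers when multiplied by 75, a read length, while the methods name reads of 100 bases. On the assumption that a count is 75 bases of coverage and a fragment 2 reads of 100 bases, each library held an estimated 16.3M to 23.2M fragments. This assumption was not tested further. The authors' FPKM values scale to transcript length and library size.

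Counts were rounded and tested in R 4.3.3 with edgeR 4.0.16 (TMM, minimum count of 10, quasi-likelihood test), with Benjamini-Hochberg adjustment over 16138 genes and a threshold of 0.05. Single ligands were also compared by a two-sided exact permutation test on CPM values. DESeq2 1.42.0 and limma 3.58.1, on log2 FPKM after quantile normalization with a pseudocount of 1 or 0.1, were alternatives, besides other scalings and filters, a replicate block, a fragment scale and each library left out. Tests were tested on simulated data. Near-identical copies of at least 200 bases at 95% identity were sought with BLAST 2.17.0. No copy of a library was found among the 6.

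The 10 ligands and the gene lists were chosen with earlier results of these data known. Named are all 10 ligands, receptors with a mean of at least 1 CPM, other listed genes with an unadjusted p under 0.05, neighbouring chemokine genes and, for each ligand of at least 10 CPM, the gene of highest correlation. The other genes of the interferon gamma list, Rel, Adam10, Adam17, Ackr1 and the cell type markers given by name were named after values were seen. Some genes of these lists count in the totals but are not reported here. P-values measure the spread between these 6 mice.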

Additional observations from a re-analysis of the deposited data

How the results depend on the processing

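None of the 10 ligands was called in any of the 11 alternatives with all 6 libraries or the 6 fits without 1 library, with 0 to 3 at an unadjusted p under 0.05. Ligands higher in Van numbered 3, 4 in the 3 limma settings, and 2 to 5 with a library left out (5 without Con replicate 2). With size factors of DESeq2, 1 ligand, Ccl24, did not overlap between groups. Receptors called went from 1 to 0 with a replicate block and with limma at either pseudocount or without a filter, and were 0 to 1 with a library left out. Other ligands called went from 1 to 0 with DESeq2, which gave Ccl12 no adjusted p, with at least 10 counts in every library, which removed it, with a replicate block, with limma on log2(FPKM + 1) with or without a filter, on the fragment scale and in each fit without 1 library. Among NF-kB and decay genes 0 to 1 were called with a library left out (Rel, without Van replicate 1). Interferon gamma route genes and proteases stayed at 0 called in all 17 fits.

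The log2 fold change of Ccl6 was 0.0043 with limma in all 3 settings. With a library left out, that of Ccl2 ranged from -0.42 to 0.035, Ccl4 from -0.014 to 0.41, Ccl9 from -0.055 to 0.12 and Cxcl2 from -0.39 to 0.30. Ccl9 was -0.039, -0.035, -0.055 and -0.031 without Con replicate 1, Con replicate 3, Van replicate 2 and Van replicate 3, Ccl4 -0.014 without Van replicate 1, Ccl2 0.035 and Cxcl2 0.30 without Con replicate 2, and Cxcl2 0.061 without Van replicate 2. The cause was not tested.

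Replicate numbers are shared between the groups, and deviations of same-numbered libraries from their group means correlated at 0.08, -0.04 and -0.18. Deviations from a mean of 3 sum to 0 within a group, so these values cannot decide whether the mice were paired. With the replicate block 110 genes were called in place of 322, Ccr2 had a log2 fold change of -0.85 with an adjusted p of 0.0549 in edgeR, and 0 ligands were called. With 3 mice a group, the 95% intervals of Cxcl2, Cxcl9 and Cxcl10 were wider than 1 on the log2 scale. Intervals and floors cover the mice and reads measured here only.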
